A study of Camponotus floridanus with 15 samples.

Results

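A whole-body expression table of the carpenter ant *Camponotus floridanus* holds 18979 genes. For a clear peak in the instar 4 larva, a late stage of larval growth, 66 of them were selected. Most of the 66 were also measured in other groups, and the rule asks for a margin over those groups, not for absence from them. They were chosen among the 18620 genes whose IDs open with CFLOG. Each of the 66 had an instar 4 mean at least 1.5 log2 units above its mean in every one of the other 7 groups, on log2(value + 1). Another 1348 CFLOG genes were also highest in instar 4, but by a smaller margin. The values are RPKM, reads per kilobase of gene scaled to the reads of the library, and each library was first divided by a median-ratio factor, taken against the geometric mean over all 15. Poly(A) RNA was sequenced from whole bodies, with 2 libraries each of embryo, of the larval stages instar 1 and instar 4, of early pupa, of late pupa from the minor and the major caste and of minor, and with 1 library of male. In this species the minor is the small and the major the large worker caste. All animals were kept in plaster nests on the same diet and light cycle. The labels name no treatment, transgene, age or colony. No label says that the 2 libraries of a group came from separate animals, and the spread behind each p-value may therefore be purely technical. The selection used all 15 libraries, so the difference between instar 4 and the other groups is described below and was not tested.

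Ants pass through a complete metamorphosis, and the late larva is the stage of fastest growth. In insects with such a life cycle, late larvae are known for storage proteins made by the fat body, for digestive enzymes of the midgut, for larval cuticle proteins and, in cocoon-spinning ants such as *Camponotus*, for silk made by the labial glands. None of the members (0 of 66) matched a gene of the RefSeq table of this species by its ID, so the members are given by ID and it is not known which of them belong to these classes. No protein or promoter sequence could be tied to an ID, and none is shown. A whole body mixes all tissues, so more cells of a type and more RNA per cell cannot be told apart.

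The read numbers behind the values were recovered from the steps in which low RPKM values move. The divisor of RPKM ran from 16740000 reads in embryo replicate 1 to 34150000 in minor replicate 1, and reads on genes whose length could be recovered lay between 2480000 (late pupa minor replicate 2) and 6650000 (early pupa replicate 1). In a gene of 1000 nt, 3 reads then stand for 0.088 to 0.179 RPKM on the deposited scale. This is used as the floor of a value of 0 and covers counting error only. Floors set beside rescaled levels below were also divided by the factor of the library. The factors that rescaled the libraries ran from 0.498 in instar 4 larva replicate 1, whose deposited RPKM sum to 204206, to 2.332 in embryo replicate 1. All levels below are rescaled RPKM.

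As a group, the members spanned a wide range of levels in instar 4 larvae. Their instar 4 means ran from 2.62 to 47370 rescaled RPKM with a median of 218.9. Of the 66 genes, 18 stood at 1000 or more, 26 between 100 and 1000, 15 between 10 and 100, and 7 under 10. In 64 of 66, both instar 4 libraries lay above all of the other libraries. That holds for 2.47% of all CFLOG genes and follows in part from the selection, which 0.354% of CFLOG genes met. The 2 exceptions were CFLOG004338.1 and CFLOG008200.2. Of the deposited RPKM total the 66 genes took 35.6% and 24.6% in the instar 4 libraries, 10.6% and 12.4% in instar 1 and 5.29% and 5.46% in embryo. In every other library they took at most 0.89%. Such totals weigh genes by their level. In instar 1 they rested largely on 1 gene, CFLOG000597.1, at 14410 and 18620 rescaled RPKM against a median of group means of 19.6.

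**Figure D1:**
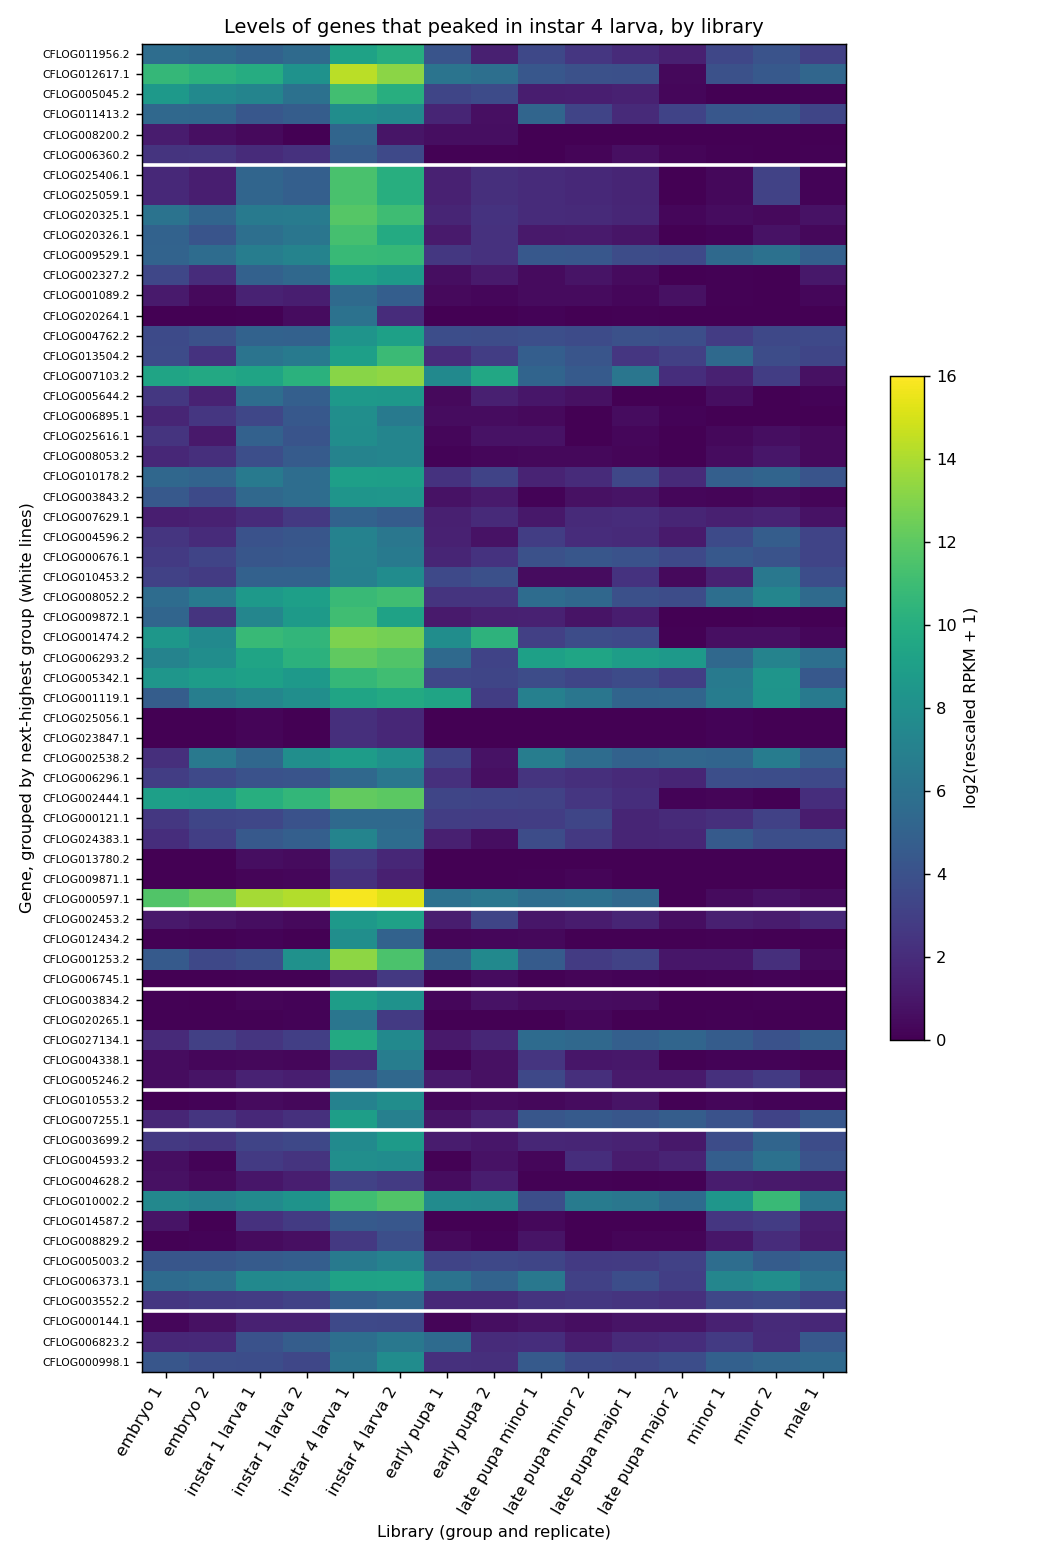
Levels of the 66 genes selected for a peak in instar 4 larva (rows) in the 15 libraries (columns), as log2(rescaled RPKM + 1). Rows are grouped by the group in which a gene was next highest, with white lines between groups in the order embryo, instar 1 larva, early pupa, late pupa minor, late pupa major, minor and male. The instar 4 columns are brightest in nearly all rows, and the block of 37 genes next highest in instar 1 larva is the largest.

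The most abundant member was CFLOG000597.1, at 57180 and 37570 rescaled RPKM in instar 4. It stood at 3166 and 5006 in embryo and at 14410 and 18620 in instar 1. In early pupa it was at 60.5 and 81, and in minor and male it did not exceed 0.745. Its level thus stood highest in instar 4 and next highest in instar 1, and the larval groups did not overlap with each other or with any later group. Its margin of 1.501 log2 units was the smallest of all members.

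The second most abundant member, CFLOG012617.1, had 20420 and 9698 in instar 4 against 1598 and 1255 in embryo and 968 and 280.2 in instar 1. It was higher in both embryo libraries than in both instar 1 libraries. From early pupa on it lay between 0.268 and 70.3. CFLOG007103.2 had 9270 and 10270 in instar 4, 662 and 815 in embryo, and 636 and 1176 in instar 1. It was still at 193 and 786 in early pupa, within the range of embryo in 1 library and below it in the other, and it lay between 0.663 and 77.2 in late pupae, minor and male.

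CFLOG001474.2 had 7199 and 6384 in instar 4 and 1755 and 1449 in instar 1. In early pupa it was at 232 and 1317, so the early pupa libraries lay far apart, and later it stayed at or below 12.2. CFLOG001253.2 had 9756 and 2776 in instar 4, with 13.2 and 269 in instar 1 and 35.7 and 194 in early pupa. The instar 1 and early pupa libraries of this gene overlapped, and both lay far below instar 4. CFLOG002444.1 had 4620 and 4067 in instar 4, 1034 and 1573 in instar 1, and 512 and 475 in embryo. These 3 groups did not overlap, and from early pupa on it was at 9.33 or less.

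**Figure D2:**
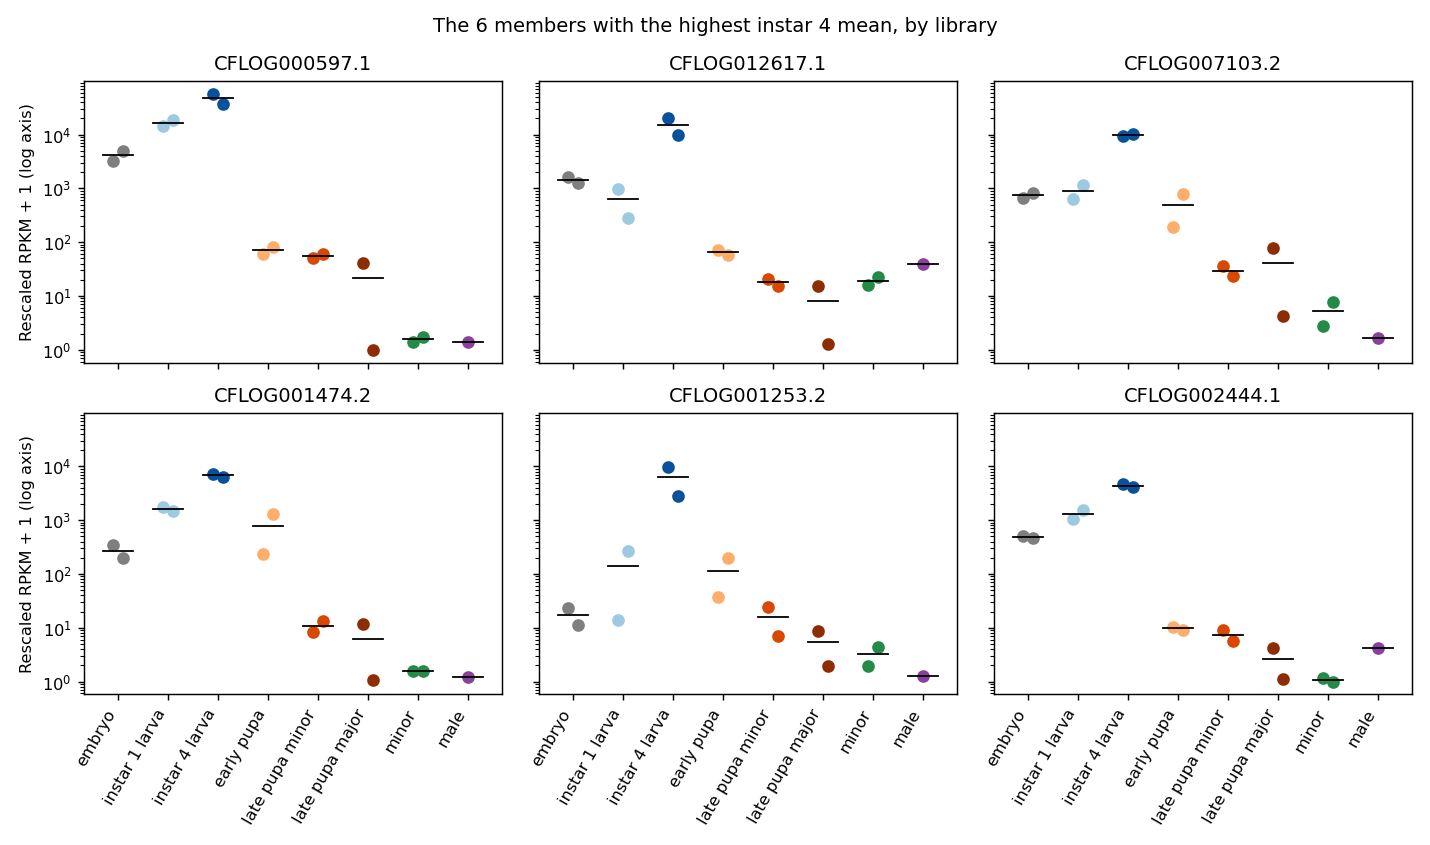
Rescaled RPKM + 1 on a log axis in each library (points) for the 6 members with the highest instar 4 mean, with black lines at group means. In all 6 both instar 4 points lie above all other points, and in late pupa major replicate 2 lies below replicate 1 in all 6.

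Other members were close to 0 in all groups but instar 4. CFLOG003834.2, with the largest margin, 8 log2 units, had 484 and 288 in instar 4 and at most 0.721 in any other library, that of early pupa replicate 2. CFLOG010553.2 had 135 and 231 in instar 4, with at most 0.761 elsewhere and a margin of 7 log2 units. Neither gene had a group other than instar 4 that stood out, since their other libraries all lay under 1. CFLOG002453.2 had 393 and 571 in instar 4 and a margin of 6.57. Outside instar 4 it reached 9.34 in early pupa replicate 2 and no more than 2.53 in the remaining libraries. CFLOG012434.2 had 244 and 31.7 in instar 4, was listed at 0 in 7 libraries and reached 0.267 elsewhere. Its length of 363 nt puts the floor of 3 reads at up to 0.823, and each of its values outside instar 4 lay below that highest floor. Over the whole list, 10 genes stayed under 1 in every library other than those of instar 4.

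The members just inside the limit were CFLOG009871.1 (margin 1.57), CFLOG000998.1 (1.54) and CFLOG003552.2 (1.53), together with CFLOG000597.1. Just outside lay CFLOG020571.1 (1.493), CFLOG002527.2 (1.475), CFLOG005728.2 (1.472) and CFLOG001527.2 (1.468). CFLOG009871.1 had 3.57 and 1.66 in instar 4, and CFLOG020571.1 had 4.66 and 1.32, so the limit separates genes of like level. The median margin of the members was 2.47, and 26 of 66 had a margin of at least 3. On the deposited scale, without rescaling, 30 of the 66 met the rule and no other CFLOG gene did.

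The group in which a member was next highest sorts the list. For 37 of 66 (56.1%) it was instar 1 larva, against 21.9% of the 1348 other CFLOG genes that were highest in instar 4. Minor came next for 9 members, embryo for 6, late pupa minor for 5, early pupa for 4, male for 3 and late pupa major for 2. Among members next highest in embryo, CFLOG005045.2 (chosen here after its values were seen) had 397 and 189.7 in embryo, 145.5 and 60.8 in instar 1 and 2302 and 1031 in instar 4. Its instar 1 libraries lay below both embryo libraries.

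CFLOG010002.2 led the members next highest in minor. It had 2185 and 3281 in instar 4, 338 and 1811 in minor, and 73.6 in male. In the groups before instar 4 it ran from 135 to 302. Minor replicate 2 thus came close to instar 4 replicate 1, while minor replicate 1 lay near the instar 1 level. CFLOG000998.1, which led those next highest in male, had 71.2 and 220.5 in instar 4, 42.5 in male and 28.5 and 37.9 in minor. For this gene male and minor stood close together.

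CFLOG027134.1 and CFLOG007255.1 led the members next highest in late pupa minor and late pupa major. CFLOG027134.1 had 839 and 191 in instar 4, and 46.5 and 41.1 in late pupa minor against 27.3 and 36.4 in late pupa major. CFLOG007255.1 had 494 and 124 in instar 4 and between 18.7 and 25.7 in the 4 late pupa libraries. In both genes embryo, instar 1 and early pupa stayed at 7.31 or less, so each was low up to instar 1, peaked in instar 4, was low again in early pupa and took an intermediate level from late pupa on.

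Outside instar 4 the number of members with a group mean of at least 10 was 40 in instar 1, 25 in embryo, 25 in minor, 21 in male, 19 in late pupa minor and 13 each in early pupa and late pupa major. The median of group means was 19.6 in instar 1, 5.08 in embryo, 1.92 in early pupa, 2.6 in late pupa minor, 1.58 in late pupa major, 3.17 in minor and 1.14 in male. Medians of early pupa and of every later group were thus all below that of embryo.

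The 18 members with an instar 4 mean of at least 1000 were also expressed as a percent of that mean. In the early pupa libraries they had medians of 0.274% and 0.228%, in late pupa minor at 0.167% and 0.133% and in late pupa major replicate 1 at 0.119%. In none of these 5 libraries was any of the 18 below 0.0521%. Late pupa major replicate 2 stood apart, with a median of 0.00926% and 9 of 18 genes under 0.01%. In minor the medians were 0.015% and 0.105%, with 6 and 5 genes under 0.01%, and in male the median was 0.0204% with 8 such genes. A level of 0.0521% or more of the instar 4 mean was thus shared by all 18 genes in 5 of the 6 pupal libraries, and whether it holds reads carried over from instar 4 libraries was not tested.

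Some abundant members stood at a larger share in single groups after instar 4. CFLOG006293.2 was at 1.15% and 0.224% of its instar 4 mean in early pupa and stood at 14.8% and 17.9% in late pupa minor and at 12.7% and 10.9% in late pupa major, the highest of the 18 in each of these 4 libraries. CFLOG001474.2 reached 19.4% in early pupa replicate 2 and CFLOG010002.2 reached 66.3% in minor replicate 2. For these genes the share lay far above the level common to the others in those libraries.

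**Figure D3:**
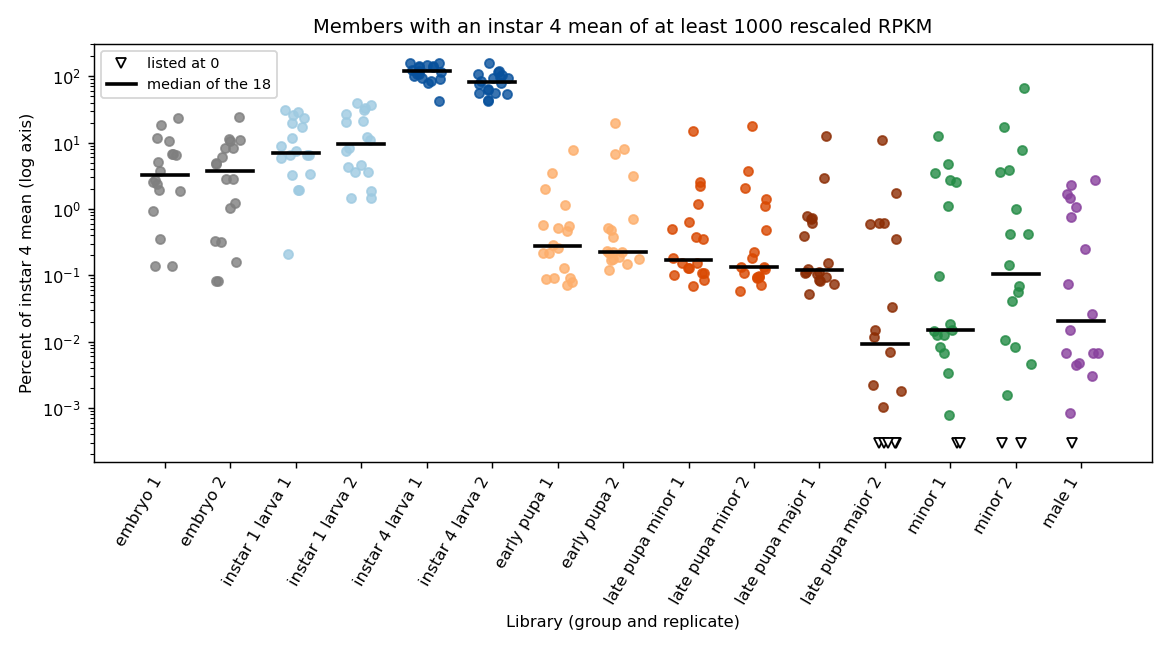
Level in each library as a percent of the gene's instar 4 mean, on a log axis, for the 18 members with an instar 4 mean of at least 1000 rescaled RPKM (points), with black lines at medians and open triangles for values listed at 0. Points in early pupa, late pupa minor and late pupa major replicate 1 do not go below 0.0521%, while those of late pupa major replicate 2, minor and male do.

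Instar 4 libraries differed more in these genes than in most. Replicate 1 was higher in 42 of 66 members and replicate 2 in 24. Among 8115 other CFLOG genes with an instar 4 mean of at least 1 rescaled RPKM, these numbers were 3316 and 4799. Members at least 2 log2 units apart numbered 6 (9.1%), against 0.44% of all CFLOG genes with at least 1 rescaled RPKM in 2 libraries. Both libraries were used to choose the genes, so this share is a description. CFLOG004338.1 had 2.8 and 108, CFLOG008200.2 had 37 and 0.885, and CFLOG020264.1 had 63.3 and 3.12. For CFLOG004338.1 and CFLOG008200.2 the lower instar 4 library lay within the range of the other groups, so their place in the list rests on 1 library. CFLOG020265.1 had 75.6 and 5.68, a split like that of CFLOG020264.1.

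**Figure D4:**
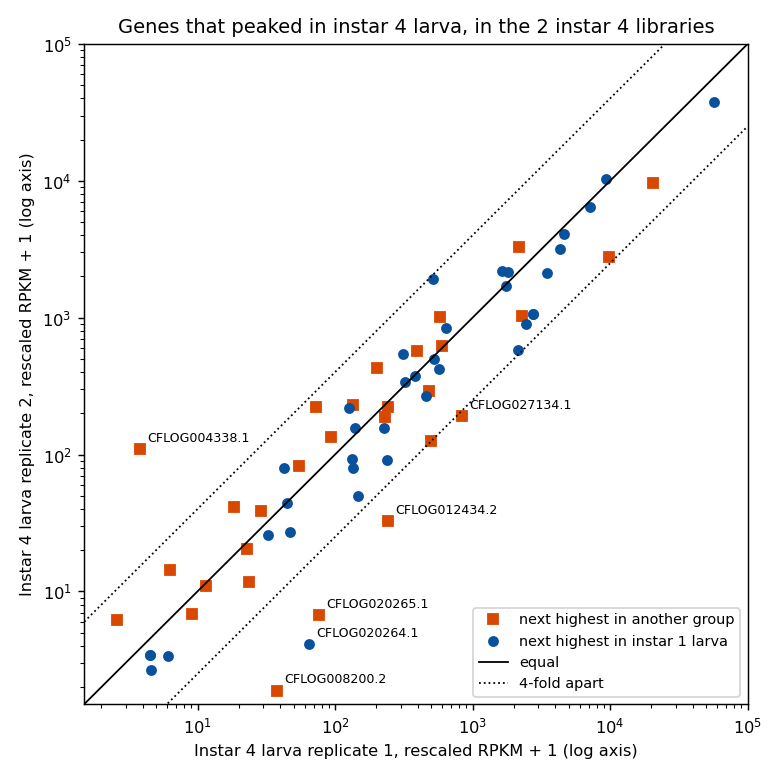
Rescaled RPKM + 1 of the 66 members in instar 4 replicate 1 (x) and replicate 2 (y), both on log axes, with circles for the 37 genes next highest in instar 1 larva and squares for the others. The solid line marks equal levels and the dotted lines a 4-fold difference, and the 6 named genes lie beyond the dotted lines.

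Other groups also split on these genes. Of the 40 members with an early pupa mean of at least 1, 9 (22.5%) lay at least 2 log2 units apart between the early pupa libraries, against 0.52% of the other CFLOG genes kept by the same filter. Higher in replicate 2 were CFLOG001474.2 (232 and 1317), CFLOG001253.2 (35.7 and 194), CFLOG002453.2 (1.41 and 9.34) and CFLOG007103.2 (193 and 786). Higher in replicate 1 were CFLOG001119.1 (641 and 6.55), CFLOG006823.2 (46.5 and 2.96), CFLOG011956.2 (17.1 and 1.71), CFLOG002538.2 (8.19 and 0.717) and CFLOG006293.2 (43.2 and 8.4). The early pupa libraries therefore did not differ by 1 common factor over the members. The 5 genes that split late pupa major (CFLOG000597.1, CFLOG007103.2, CFLOG012617.1, CFLOG001474.2 and CFLOG001253.2) were all higher in replicate 1. The genes named in this paragraph were chosen for their spread, after the values were seen.

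Several members share more than their stage. CFLOG025406.1 and CFLOG025059.1 had equal values in all 15 libraries, 2771 and 1068 in instar 4 among them, and so did CFLOG025056.1 and CFLOG023847.1, at 3.51 and 2.41 in instar 4. In all, 16 of the 10305 CFLOG genes kept by the filter (0.16%) equal another gene in this way. Such rows cannot be told apart here, so the list holds 64 distinct profiles and the values of these 4 genes are uncertain if reads were divided between copies. By ID, 12 members (18.2%), CFLOG025056.1 and CFLOG025059.1 among them, have a number within 5 of another member of the same number series, against 2.08% of the other CFLOG genes kept. No source used here says whether the numbers follow the order of genes in the genome. Adjacent numbers included CFLOG020325.1 and CFLOG020326.1, with 3450 and 2115 and with 2455 and 897 in instar 4, and CFLOG008052.2 and CFLOG008053.2, with 1801 and 2144 and with 139.6 and 156.

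A length was recovered for 62 of 66 members, and 60 of these lengths were multiples of 3. The same held for 92.2% of the other CFLOG genes kept and with a length. The length scale was itself set to bring short CFLOG lengths to multiples of 3, so these shares are no independent test of coding lengths. On that scale 99.6% of 284 lengths of genes with IDs opening with XLOC came out whole. Multiples of 3 made up 30.5% of XLOC lengths. That the table's lengths are mostly coding lengths is an assumption. The members were from 234 nt (CFLOG025406.1) to 4473 nt (CFLOG002453.2) long with a median of 892 nt. The 9736 other CFLOG genes kept and with a length had a median of 1135 nt. Under 500 nt lay 29% of members and 19.2% of the others. No test was run on this difference.

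Comparisons that leave instar 4 out were tested with limma on log2(rescaled RPKM + 1) over 10619 genes, with p-values adjusted by Benjamini-Hochberg. All 15 libraries were in the fit. The spread behind each p-value thus includes that between the instar 4 libraries, which were used to choose the members. All 66 members passed the filter of at least 1 rescaled RPKM in at least 2 libraries, but 10 of them had no library other than those of instar 4 at 1 or above. CFLOG008200.2 had only embryo replicate 1, at 1.346, and so also needed instar 4 to pass. None of these genes was called in any of the comparisons. They stay in each count of 66, which lowers the members' shares beside those of all genes. The selection set an upper limit on every other group and no order between these groups. Genes chosen for high larval levels are still not independent of a larval pattern, so the counts are read beside those of all genes and no further. Where a library is left out below, the share of all genes called moved too. A count from such a fit is therefore not a result about the members alone.

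**Figure D5:**
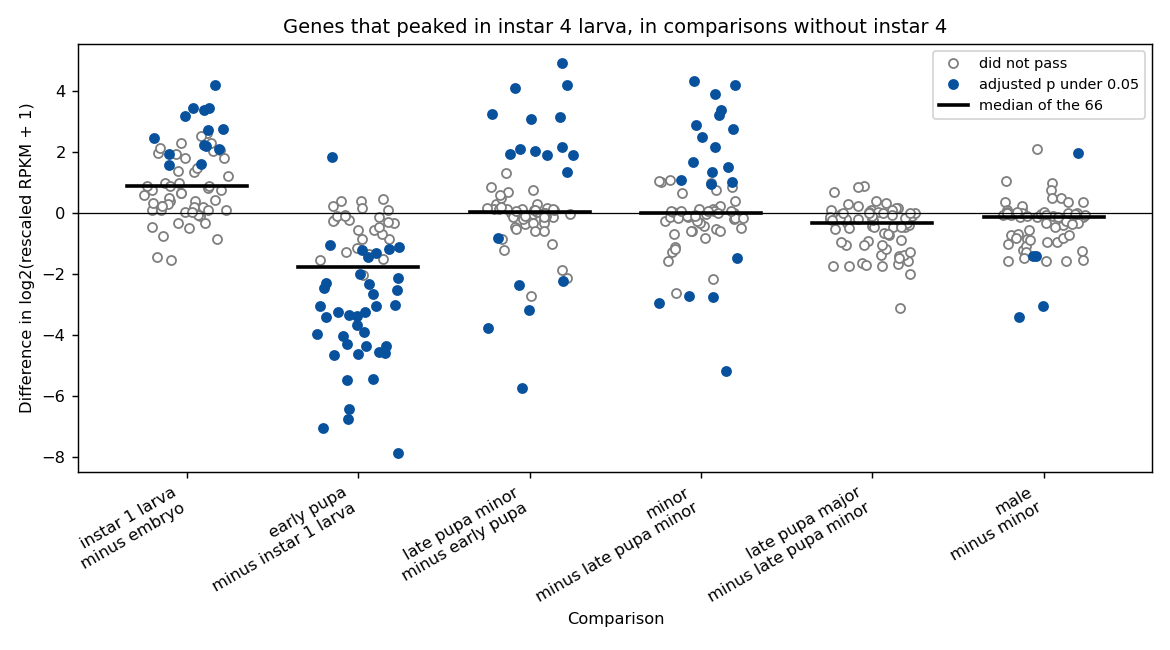
Difference in log2(rescaled RPKM + 1) of the 66 members (points) in the 6 comparisons without instar 4, with filled points for an adjusted p under 0.05 in limma and black lines at medians. Filled points lie above 0 from embryo to instar 1 larva, nearly all below 0 from instar 1 larva to early pupa, and on both sides in the later steps, except between the late pupa castes, where no point is filled.

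From embryo to instar 1 larva 14 of 66 members rose and 0 fell, against 1.24% and 0.885% of all genes (2.13% in either direction). The median difference was 0.88 over the members and -0.01 over all genes. CFLOG009872.1 rose from 36.7 and 4.29 to 159.5 and 418, a log2 difference of 4.2 ± 0.81 (SE, adjusted p = 0.022), and the groups did not overlap. CFLOG025059.1 and its equal CFLOG025406.1 rose from 2.63 and 1.55 to 36.8 and 27.6 (3.44 ± 0.77, adjusted p = 0.0414). At 29 members the unadjusted p was under 0.05, and the matching number over all genes was not counted. The count of 14 rested on single libraries: 7 were called without embryo replicate 1, 5 without embryo replicate 2 and 1 without instar 1 larva replicate 2, with 0.259%, 0.599% and 0.095% of all genes called in either direction. CFLOG009872.1 lost its call without embryo replicate 2 (2.78, adjusted p = 0.126) and without instar 1 larva replicate 2 (3.5, 0.339). CFLOG025059.1 lost it without either embryo or either instar 1 library, with differences of 3.17 to 3.66, and without either early pupa library (adjusted p = 0.0512 and 0.0516). Both calls were also lost with a pseudocount of 0.1 (adjusted p = 0.104 for CFLOG009872.1 and 0.199 for CFLOG025059.1) and with no filter on low values (0.165 and 0.216).

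Between instar 1 larva and early pupa, which lie on either side of the peak, 38 of 66 members fell and 1 rose, against 8.72% and 10.5% of all genes (19.3% in either direction). The median difference was -1.77 over the members and -0.01 over all genes. CFLOG000597.1 stood at 14410 and 18620 in instar 1 and at 60.5 and 81 in early pupa (-7.85 ± 1.12, adjusted p = 0.000433). CFLOG002444.1 stood at 1034 and 1573 and then at 9.33 and 8.24 (-7.03 ± 0.48, adjusted p = 1.52e-06). Neither gene overlapped between these groups. The 1 gene that rose was CFLOG002453.2, from 0.479 and 0.318 to 1.41 and 9.34 (1.84 ± 0.53, adjusted p = 0.0276). It lost its call without early pupa replicate 2 (0.8, adjusted p = 0.269) and without instar 1 larva replicate 1 (1.89, 0.0932) or replicate 2 (1.73, 0.148), and it differed by 2.89 without early pupa replicate 1. It also lost it with only the groups compared (adjusted p = 0.0805) and when genes of low value were kept (0.133).

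From early pupa to late pupa minor 13 members rose and 6 fell, against 14.2% and 12.0% of all genes. In either direction 28.8% of members and 26.2% of all genes were called. CFLOG006293.2 rose from 43.2 and 8.4 to 554 and 670.4 (4.9 ± 0.67, adjusted p = 0.000294), which took it above its embryo level of 139 and 231. CFLOG002538.2 rose from 8.19 and 0.717 to 108 and 48.5 (4.21 ± 1.21, adjusted p = 0.023). CFLOG001474.2 fell from 232 and 1317 to 7.32 and 12.2 (-5.72 ± 0.9, adjusted p = 0.00073) and CFLOG007103.2 from 193 and 786 to 34.3 and 22.2 (-3.77 ± 1.03, adjusted p = 0.0177). Without early pupa replicate 2 the count of 19 was 10, and CFLOG002538.2 (a difference of 3, adjusted p = 0.182) and CFLOG007103.2 (-2.76, 0.151) lost their calls. CFLOG002538.2 also lost it without late pupa minor replicate 1 (3.65, 0.0944) and CFLOG007103.2 without late pupa minor replicate 2 (-3.46, 0.0761), and both lost it with no filter on low values (0.125 and 0.103). On the deposited scale 9 of 65 members tested rose and 8 fell, while 13.7% of all genes were called in either direction. The likeness to all genes seen on rescaled values thus depended on the rescaling.

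From late pupa minor to minor 15 members rose and 5 fell, against 18.3% and 15% of all genes. In either direction 30.3% of members and 33.3% of all genes were called. On the deposited scale 16 of 65 members tested were called, against 16.4% of all genes, so the likeness to all genes depended on the rescaling. CFLOG010002.2 rose from 13.6 and 101 to 338 and 1811 (4.34 ± 0.81, adjusted p = 0.00157) and CFLOG004593.2 from 0.202 and 3.32 to 26.6 and 61.8 (4.19 ± 0.52, adjusted p = 8.11e-05). CFLOG004593.2 was at 5.62 and 4.28 in instar 1, so its minor level was above that of every group other than instar 4. CFLOG000597.1 fell from 50.8 and 58.4 to 0.374 and 0.745 (-5.16 ± 1.12, adjusted p = 0.00411) and CFLOG006293.2 from 554 and 670.4 to 41.1 and 144 (-2.96 ± 0.67, adjusted p = 0.0054). In late pupa minor CFLOG000597.1 stood at 0.107% and 0.123% of its instar 4 mean, near the low level shared by the 18 abundant members there. The falls of CFLOG001474.2 (0.108% and 0.18%), CFLOG002444.1 (0.183% and 0.108%) and CFLOG020325.1 (0.102% and 0.0971%) started near the same level. That of CFLOG006293.2 (14.8% and 17.9%) did not. The part of carried-over reads in the falls from that low level was not tested. Leaving out late pupa minor replicate 2 or minor replicate 2 lowered the count of 20 to 13 in each case, and CFLOG006293.2 lost its call without minor replicate 1 (-2.07, adjusted p = 0.0502).

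Late pupae were also compared by caste. Limma called 0 of 66 members between major and minor, against 1.47% of all genes (0.876% higher and 0.593% lower in major). The median difference, major minus minor, was -0.32 over the members and 0 over all genes, and 15 of 66 members were higher in major. The unadjusted p was under 0.05 at 10 members, all of them lower in major. How many of all genes fell under that unadjusted limit was not counted, so the 10 have no background beside them. CFLOG008052.2, the member with the lowest p, had 14.1 and 11.9 in major and 50.5 and 40.3 in minor (-1.72 ± 0.43, adjusted p = 0.0654), without overlap. The lower levels in late pupa major replicate 2 described above move with this direction. The count was 3 without late pupa minor replicate 2 or without late pupa major replicate 1, 2 without either minor library, and 1 without either instar 4 library. All of these calls were lower in major. The share of all genes called moved with the library left out as well, so these counts are not results about the members alone.

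Between male and minor limma called 5 members, 4 lower and 1 higher in male, against 6.7% and 4.82% of all genes (11.5% in either direction). The male group has 1 library, which the fit takes to vary like the others, so the spread among males was not measured. CFLOG005342.1 was at 20.1 in male and at 91.6 and 327 in minor (-3.05 ± 0.59, adjusted p = 0.00926). CFLOG010002.2 was at 73.6 against 338 and 1811 (-3.39 ± 1, adjusted p = 0.0463). CFLOG002444.1 was at 3.18 against 0.149 and 0 (1.96 ± 0.59, adjusted p = 0.0497). The last 2 calls were close to the threshold. The male level of CFLOG002444.1 was 0.0732% of its instar 4 mean, where the 18 abundant members had a median of 0.0204% in male. Whether this low level holds reads carried over from instar 4 libraries was not tested. CFLOG010002.2 passed without either late pupa minor library and without minor replicate 1, and missed it with any other library left out (adjusted p = 0.0562 to 0.277, the last without minor replicate 2). CFLOG002444.1 passed without either late pupa library of either caste and missed it with any other left out (adjusted p = 0.056 to 0.205). Both genes also missed it with no filter on low values (adjusted p = 0.153 and 0.14). The count of 5 was 10 without minor replicate 1, which leaves 1 library against 1, 1 without minor replicate 2, 7 without either late pupa minor library, and 2 or 3 without any other library. On the deposited scale 1 of 65 members tested was lower and 2 were higher, while 12.3% of all genes were called in either direction.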

How the data were processed

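Libraries kept strand information and came from poly(A) RNA of whole bodies, per the labels' protocols. The authors deposited 1 table of RPKM values per gene and library. STAR 2.5.0b and DESeq2 appear in the submitters' processing notes with no role. Not given in the sources used here were the counting tool, the genome build, the annotation and any batch. Every value column belonged to a labelled library (0 without one). Libraries were rescaled by median ratios over 9990 genes above 0 in all 15. Differences were tested with limma 3.58.1 in R 4.3.3 on log2(rescaled RPKM + 1), 1 term per group, two-sided, with Benjamini-Hochberg adjustment over the 10619 genes with at least 1 rescaled RPKM in at least 2 libraries and a threshold of 0.05. The procedure was tested on simulated data. Gene lengths at which the values below 1000 reads came out whole, to within 0.01 reads, were found for 13300 of 18979 genes. The depth per sample and the floors rest on the same scale as these lengths. That scale was set where most short CFLOG lengths were multiples of 3. The 66 members and all lists were chosen with earlier results of these data known. Named were the 6 members of highest instar 4 mean, the 4 of largest margin, the 4 on each side of the limit, the 3 highest in another group, the 3 whose instar 4 libraries lay farthest apart, the leading member for each next-highest group, and up to 2 rises and 2 falls per comparison. Others were named after their values were seen.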

Additional observations from a re-analysis of the deposited data

Results flagged for a closer look

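Outside the CFLOG genes, 3 of the 359 genes with IDs opening with XLOC also had an instar 4 mean at least 1.5 log2 units above every other group. They were not part of the list above and no comparison uses them. XLOC_011559 had 227.7 and 92.75 rescaled RPKM in instar 4, with late pupa major next at 15.42 and 10.65, a margin of 3.40. XLOC_015902 had 5.068 and 13.33 in instar 4 and a margin of 1.93, with early pupa next at 1.563 and 1.331. XLOC_013447 had 15.4 and 13.85 in instar 4 and a margin of 1.65, with male next at 3.977. In all 3 both instar 4 libraries lay above every other library.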

How the results depend on the processing

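The number of members was 30 on deposited RPKM, 130 with a margin of 1 and 42 with a margin of 2, and 59 to 84 with 1 library left out. Counts of members called ranged, with 1 library left out, from 1 to 16 (instar 1 larva minus embryo), 28 to 40 (early pupa minus instar 1 larva), 10 to 20 (late pupa minor minus early pupa), 13 to 24 (minor minus late pupa minor), 0 to 3 (late pupa major minus late pupa minor) and 1 to 10 (male minus minor). The share of all genes called also moved with the library left out, so these ranges are not results about the members alone. From embryo to instar 1 larva the count was 5 with a pseudocount of 0.1, 4 with no filter and 25 (of 51 tested) with only the groups compared. Of all genes 1.31%, 0.669% and 6.33% were then called. With no filter the count was 10 from early pupa to late pupa minor and 1 for male minus minor, with 11.9% and 5.15% of all genes called. For male minus minor it was 3 on deposited RPKM and 3 with a filter of 1 in 1 library, with 12.3% and 11.6% of all genes called. The cause was not tested. Same-numbered libraries did not deviate together (correlations of -0.358 to 0.232 over 21 pairs of groups); with the replicate number as a block the counts were 12, 38, 17, 21, 1 and 1 in the order above. On the deposited scale the median of all genes shifted to -0.74 from instar 1 larva to early pupa, -0.28 from early pupa to late pupa minor and 0.61 for male minus minor. Of the alternatives for single named genes, 297 kept their call, 54 lost it and 0 changed sign.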
